A study of Mus musculus with 8 samples.

Results

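Iron uptake, storage, export and sensing genes were examined in LSK cells, the lineage-low, Sca1-positive, cKit-high cells of mouse bone marrow that hold the haematopoietic stem cells and early progenitors. The list held 10 genes of iron handling: Tfrc, Tfr2, Slc11a2, Steap3, Slc25a37, Fth1, Ftl1, Slc40a1, Ireb2 and Aco1. Of these, 9 had a probe set named for a single gene, among 18193 genes measured in that way, and 1, Ftl1, did not and has no value here. The series compared 4 C57BL/6 mice heterozygous for Jak2V617F with 4 wild type C57BL/6 mice, with 1 Affymetrix mouse expression array per mouse. Jak2V617F is the constitutively active form of the kinase that relays erythropoietin, thrombopoietin and other cytokine signals, and it causes myeloproliferative neoplasms. The study asked how this kinase, at a physiological level, affects stem and progenitor cells. How the allele was activated and the age of the mice are not given in the sources used here. RNA of the sorted cells was amplified linearly before labelling. Values are log2 intensities, every difference is mutant minus wild type, and the number of arrays limits the precision.

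Most cells take up iron as transferrin bound to the transferrin receptor, Tfrc, which carries it into endosomes. There the reductase Steap3 converts ferric to ferrous iron, and the divalent metal transporter Slc11a2 moves it into the cytosol. From the cytosol iron enters mitochondria through the mitoferrin Slc25a37 for haem and iron-sulphur clusters, is stored in ferritin, or leaves through the exporter ferroportin, Slc40a1. The iron regulatory proteins, encoded by Aco1 and Ireb2, bind hairpins in mRNAs when iron is low. They stabilise the Tfrc message and block translation of the ferritin messages, and the translational part of this control cannot be read from transcript levels. Developing red cells take up the most iron in the marrow, so several of these genes are known for high expression in the erythroid lineage.

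The arrays were alike at large, with array medians from 7.06 to 7.15 and pairwise correlations across probe sets from 0.991 to 0.996. The median difference over all genes was 0.05, and 62.6% of genes lay above 0. The LSK genes Kit, Cd34, Flt3, Meis1, Mecom, Hlf, Gata2 and Cd48 were all well detected, with list means from 12.87 to 12.95 in wild type and from 12.76 to 12.93 in mutant arrays. Of these 8 genes 6 lay below 0. Mecom (-0.34, limma adjusted p = 0.154) and Cd34 (-0.12, limma adjusted p = 0.35) were lower without overlap, as were 3.33% of all genes. Cd48, a marker of progenitors rather than stem cells, was higher without overlap (0.35, limma adjusted p = 0.138), as were 6.82% of all genes. The part of such shifts within the sorted gate in the results was not tested. Xist and Y-linked transcripts showed female expression in 3 arrays, 2 wild type and 1 mutant. In arrays of the other sex these transcripts read up to 6.54, which is taken here as the level that absent transcript can reach. Probe sets differ in this level, and the lowest array value among the probe sets that represent the 9 genes was 8.30.

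The transferrin receptor lay higher in every mutant array, and the genes that act with it in the endosome lay higher by smaller amounts. No gene of the list passed limma's threshold over all genes (adjusted p under 0.05), which 0.165% of genes did. At an unadjusted limma p under 0.05, 5 of the 9 genes lay higher and 1 lower, against 11.9% and 5.23% of all genes. The groups did not overlap for 4 genes in the upward direction and for 1 in the downward direction, against 6.82% and 3.33% of all genes. In the bulk RNA of a sorted population, a different share of cells of one kind and a different amount of RNA per cell cannot be told apart.

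**Figure D1:**
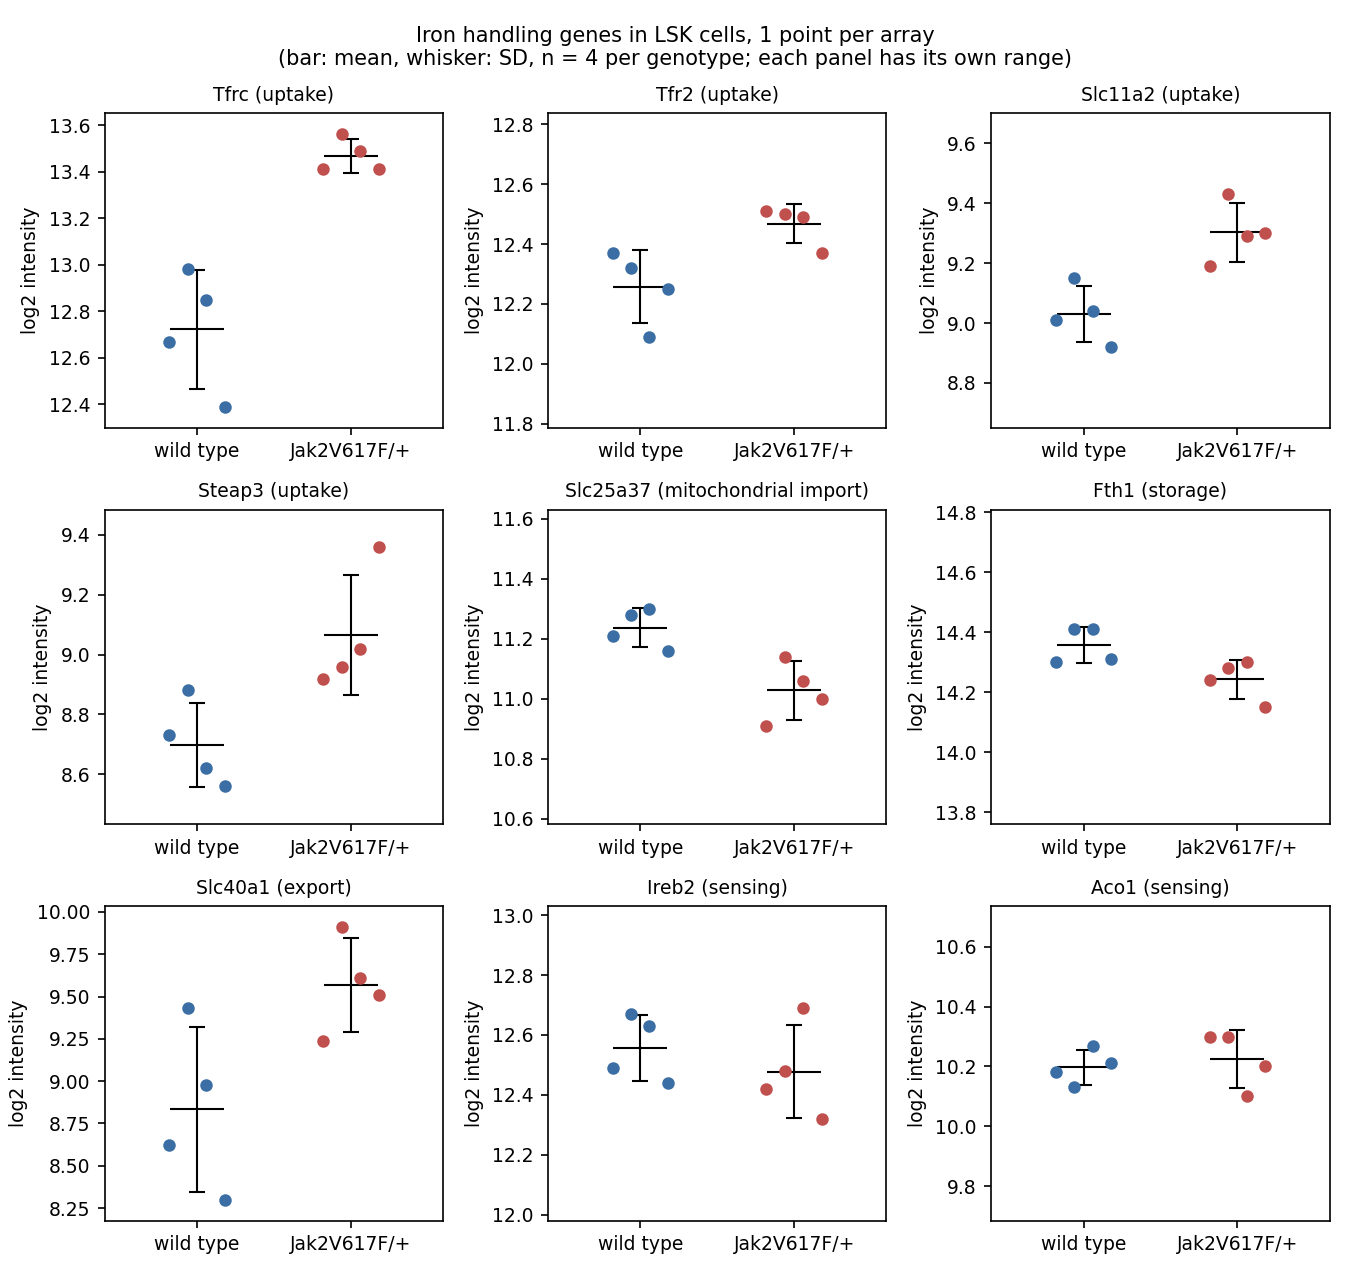
Log2 intensity (vertical axes, each panel with its own range) of the 9 measured iron genes in 4 wild type (blue) and 4 heterozygous Jak2V617F arrays (red), 1 point per array, with mean and SD. The mutant points lie above all wild type points for Tfrc, Tfr2, Slc11a2 and Steap3 and below them for Slc25a37.

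Tfrc encodes the main receptor for transferrin-bound iron, which is also known as a mark of dividing cells. Its log2 intensity was 12.67, 12.98, 12.85 and 12.39 in the wild type arrays and 13.41, 13.56, 13.49 and 13.41 in the mutant arrays. The mutant arrays lay close together, the wild type arrays were spread more widely, and 0.43 separated the highest wild type from the lowest mutant array. The means were 12.72 ± 0.26 and 13.47 ± 0.07 (SD, n = 4 each), a difference of 0.75 ± 0.12 (SE) or 1.68-fold, with a 95% interval from 1.39-fold to 2.03-fold. The limma adjusted p was 0.0652, just outside the threshold, and Tfrc ranked 45 of all genes by p.

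The call for Tfrc depended on how the values were handled. With the probe sets of each gene averaged the difference was 0.64 and was called (limma adjusted p = 0.0292), and so it was when the prior variance followed the intensity and was fitted robustly (0.75, limma adjusted p = 0.0218). Centring the arrays on their medians over all probe sets, an alternative chosen after seeing the data, also gave a call (0.79, limma adjusted p = 0.0458).

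The other probe sets for Tfrc differed in the same direction. Probe set 1422966_a_at read from 9.22 to 9.56 in wild type and from 9.88 to 10.07 in mutant arrays. Its difference of 0.60 ± 0.095 (SE) passed the threshold when all 45037 probe sets were tested on their own (limma adjusted p = 0.0487), as 0.244% of probe sets did. That call was lost without any 1 of the 8 arrays, with differences from 0.55 to 0.67 and limma adjusted p from 0.0625 to 0.12, an alternative chosen after seeing the data. Probe set 1422967_a_at read from 7.68 to 7.86 in wild type and from 8.17 to 8.66 in mutant arrays, a difference of 0.57 ± 0.12 (SE; limma adjusted p over all probe sets = 0.081).

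The array also carries 3 control probe sets for the transferrin receptor, placed along the transcript to follow its integrity. The 3′ control read 9.59, 9.75, 9.90 and 9.58 in wild type and 10.25, 10.26, 10.22 and 10.62 in mutant arrays. The middle control read from 7.93 to 8.15 in wild type and from 8.34 to 8.59 in mutant arrays. The 5′ control was dim, from 5.40 to 6.01 in wild type and from 6.22 to 6.53 in mutant arrays, a range in which absent transcript can also read. All 3 read higher in every mutant array, by 0.63, 0.40 and 0.63, but no direction is read from the 5′ control. The mean of the 3 controls per array, the dim 5′ control included, went from 7.83 ± 0.13 to 8.38 ± 0.08 (SD, n = 4 each). Its difference was 0.55, with a two-sided exact permutation p of 0.0286, the smallest that 4 arrays against 4 can give. Alone, the 3′ and the middle control each gave the same exact p. The 3′ minus 5′ difference of the Tfrc controls, a measure of RNA integrity and amplification, also rests on the dim 5′ control. It overlapped between the genotypes, from 3.84 to 4.35 in wild type and from 3.72 to 4.40 in mutant arrays. The same measure for Gapdh lay from 0.68 to 0.73 and from 0.56 to 0.77, and for beta-actin from 0.60 to 0.72 and from 0.63 to 0.73.

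**Figure D2:**
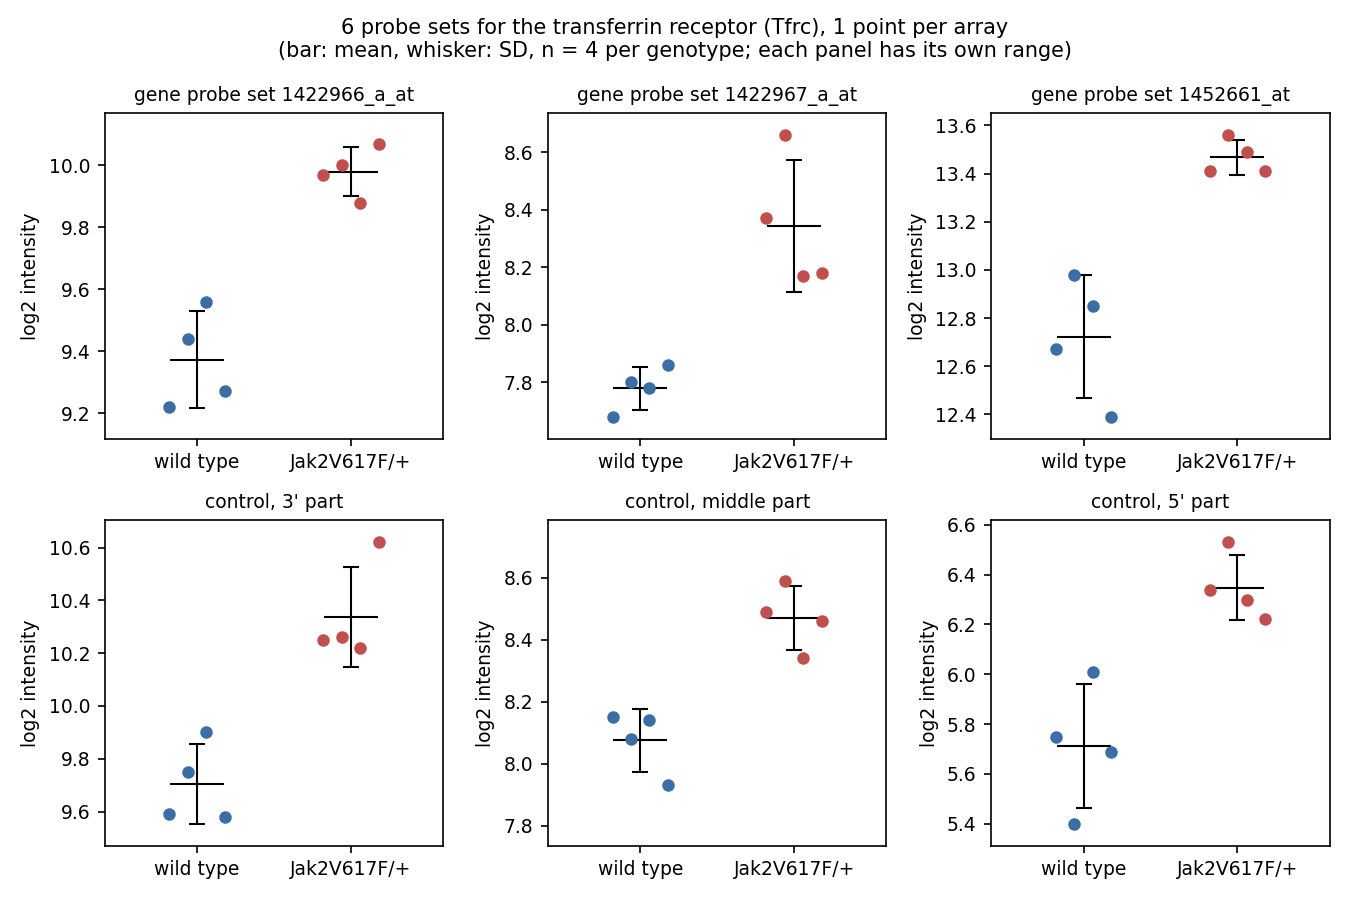
Log2 intensity (vertical axes, each panel with its own range) of the 3 gene probe sets and 3 control probe sets for Tfrc in 4 wild type (blue) and 4 mutant arrays (red), with mean and SD. In each of the 6 panels the mutant points lie above all wild type points, and those of the 5′ control lie within the range of absent transcript.

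Slc11a2, which carries ferrous iron out of the endosome, read 9.01, 9.15, 9.04 and 8.92 in wild type and 9.19, 9.43, 9.29 and 9.30 in mutant arrays. All mutant arrays were above all wild type arrays, though by only 0.05 at the closest. The difference was 0.27 ± 0.079 (SE) or 1.21-fold, with a limma adjusted p of 0.173. Among its other probe sets, 1426441_at differed by 0.35 and 1417584_at by 0.26, while 1441709_at read from 5.21 to 5.87, within the range of absent transcript, and no direction is read from it. Slc11a2 messages exist with and without an iron-responsive hairpin, and which of these each probe set reads was not tested.

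Steap3, the endosomal ferrireductase, read 8.73, 8.88, 8.62 and 8.56 in wild type and 8.92, 8.96, 9.02 and 9.36 in mutant arrays. The groups did not overlap, and mutant array 4 stood highest. The difference was 0.37 ± 0.11 (SE) or 1.29-fold (limma adjusted p = 0.194). It was 0.33 and 0.31 in the 2 other probe sets, whose groups overlapped at levels from 6.00 to 7.23. The means of 1430355_a_at, which differed by 0.33, were within the range of absent transcript in both genotypes (6.10 and 6.44).

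Tfr2 encodes a second transferrin receptor, of liver and erythroid cells, that senses transferrin saturation and associates with the erythropoietin receptor. It read 12.37, 12.32, 12.09 and 12.25 in wild type and 12.51, 12.50, 12.49 and 12.37 in mutant arrays. Its groups were separated by only 0.0045, between wild type array 1 and mutant array 4. The difference was 0.21 ± 0.080 (SE; limma adjusted p = 0.238), and the further Tfr2 probe set differed by 0.09 with overlapping groups.

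The receptor and reductase genes Tfrc, Tfr2 and Steap3 each lay higher in the mutant arrays. Their most upstream promoter windows are given to show the sequence in front of them. Each runs from 250 bases before to 10 bases after the start of the RefSeq transcript, 5′ to 3′ on the gene's strand, in assembly GRCm38.p6. The positions are chr16:32608646-32608905 (plus strand) for Tfrc, chr5:137569590-137569849 (plus strand) for Tfr2 and chr1:120271071-120271330 (minus strand) for Steap3. Capitals mark matches to the motifs searched.
Tfrc: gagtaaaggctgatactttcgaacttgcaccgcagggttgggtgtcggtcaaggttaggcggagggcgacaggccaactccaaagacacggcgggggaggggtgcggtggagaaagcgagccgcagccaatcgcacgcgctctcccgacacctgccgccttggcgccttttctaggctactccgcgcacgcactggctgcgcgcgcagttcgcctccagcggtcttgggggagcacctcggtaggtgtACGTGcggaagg
Tfr2: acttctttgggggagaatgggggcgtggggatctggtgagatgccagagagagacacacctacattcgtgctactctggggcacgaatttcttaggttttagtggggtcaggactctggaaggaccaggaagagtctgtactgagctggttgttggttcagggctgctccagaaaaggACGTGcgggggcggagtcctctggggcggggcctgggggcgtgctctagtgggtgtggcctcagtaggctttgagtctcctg
Steap3: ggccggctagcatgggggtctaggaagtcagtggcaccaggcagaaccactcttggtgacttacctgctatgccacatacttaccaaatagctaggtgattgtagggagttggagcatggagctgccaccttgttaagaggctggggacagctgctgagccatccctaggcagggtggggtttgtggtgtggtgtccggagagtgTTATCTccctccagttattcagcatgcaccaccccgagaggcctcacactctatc

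Both strands of each window were searched for 4 motifs. The first was TTCNNNGAA, the Stat core. The next was ACGTG, the core of hypoxia response elements, and CACGTG, the E-box that Myc binds and that contains it, was searched too. The last was the GATA motif, taken as GATA with A or T in front of it and A or G behind it. ACGTG began 2 bases before the Tfrc start and 72 bases before the Tfr2 start, and a GATA match lay 45 bases before the Steap3 start on the opposite strand. RefSeq windows were at hand for 7 of the 10 genes, 14 in all. TTCNNNGAA was in 0 of the 14, against 7.33% of all 32851 windows, and CACGTG in 0 against 6.34%. ACGTG was in 4, both windows of Tfrc and 2 of Tfr2, against 17.3% of all windows, and a GATA form in 2 against 27.3%. The windows of Tfrc overlap, and their match is 1 and the same site. A match is a description of these letters, and no match says only that they are not in this window.

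Slc25a37, mitoferrin 1, brings iron into the mitochondria of erythroid cells for haem. In contrast to the uptake genes, it lay lower in the mutant arrays. It read 11.21, 11.28, 11.30 and 11.16 in wild type and 10.91, 11.14, 11.06 and 11.00 in mutant arrays, and the groups did not overlap, with 0.02 between the closest arrays. The difference was -0.21 ± 0.073 (SE), that is 1.16-fold lower, with a limma adjusted p of 0.22. It had 1 probe set, so no other could be compared.

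Fth1, the heavy chain of ferritin that oxidises iron for storage, was among the brightest probe sets and differed little. It read 14.30, 14.41, 14.41 and 14.31 in wild type and 14.24, 14.28, 14.30 and 14.15 in mutant arrays, so that 3 of 4 mutant arrays lay below all wild type arrays. The difference was -0.11 ± 0.067 (SE), with a 95% interval from -0.26 to 0.04 and a limma adjusted p of 0.411. The other Fth1 probe set, 1427021_s_at, read from 13.88 to 14.08 in wild type and from 13.76 to 13.85 in mutant arrays. It differed by -0.15 ± 0.077 (SE; limma adjusted p over all probe sets = 0.355), its groups did not overlap, and the same held for 4.66% of all probe sets in that direction.

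The exporter gene Slc40a1, known for high expression in macrophages that recycle red cells and in erythroid cells, showed a difference about as large as that of Tfrc but with far more spread. It read 8.62, 9.43, 8.98 and 8.30 in wild type and 9.24, 9.91, 9.61 and 9.51 in mutant arrays. Wild type array 2 stood above mutant array 1, and the other 3 mutant arrays were above all wild type arrays. The difference was 0.74 ± 0.23 (SE) or 1.67-fold, with a 95% interval from 1.15-fold to 2.41-fold and a limma adjusted p of 0.197. Its dimmer probe set, 1448566_at, read 6.32, 6.40, 6.20 and 5.56 in wild type and 6.85, 6.97, 7.15 and 6.81 in mutant arrays. There the groups did not overlap and the difference was 0.83 ± 0.18 (SE; limma adjusted p over all probe sets = 0.0882), but the wild type values were within the range of absent transcript.

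The sensors differed least. Ireb2, iron regulatory protein 2, which is degraded when iron is plentiful, read 12.49, 12.67, 12.63 and 12.44 in wild type and 12.42, 12.48, 12.69 and 12.32 in mutant arrays. Its difference was -0.08 with a 95% interval from -0.29 to 0.14 (limma adjusted p = 0.681). Aco1, the cytosolic aconitase that becomes iron regulatory protein 1 when it loses its iron-sulphur cluster, read from 10.13 to 10.27 in wild type and from 10.10 to 10.30 in mutant arrays. Its difference was 0.03 with an interval from -0.13 to 0.19 (limma adjusted p = 0.857). The groups overlapped for both, and these intervals leave room for differences of up to 0.29 in size.

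Across the list, 7 of the 9 genes had further probe sets, 12 in all. On all arrays 2 of these, 1441709_at of Slc11a2 and 1447080_at of Aco1, were within the range of absent transcript. Of the other 10, 9 differed in the same direction as the probe set that represents the gene and 1, 1456728_x_at of Aco1, in the opposite direction (-0.05). Among these 9, 1430355_a_at of Steap3 had the means of both genotypes within the range of absent transcript. The groups did not overlap for 4 of the 12, which were both for Tfrc, 1 for Slc40a1 and 1 for Fth1. Those for Tfrc and Slc40a1 lay higher, as did 5.52% of all probe sets without overlap, and that for Fth1 lay lower, as did 4.66%.

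**Figure D3:**
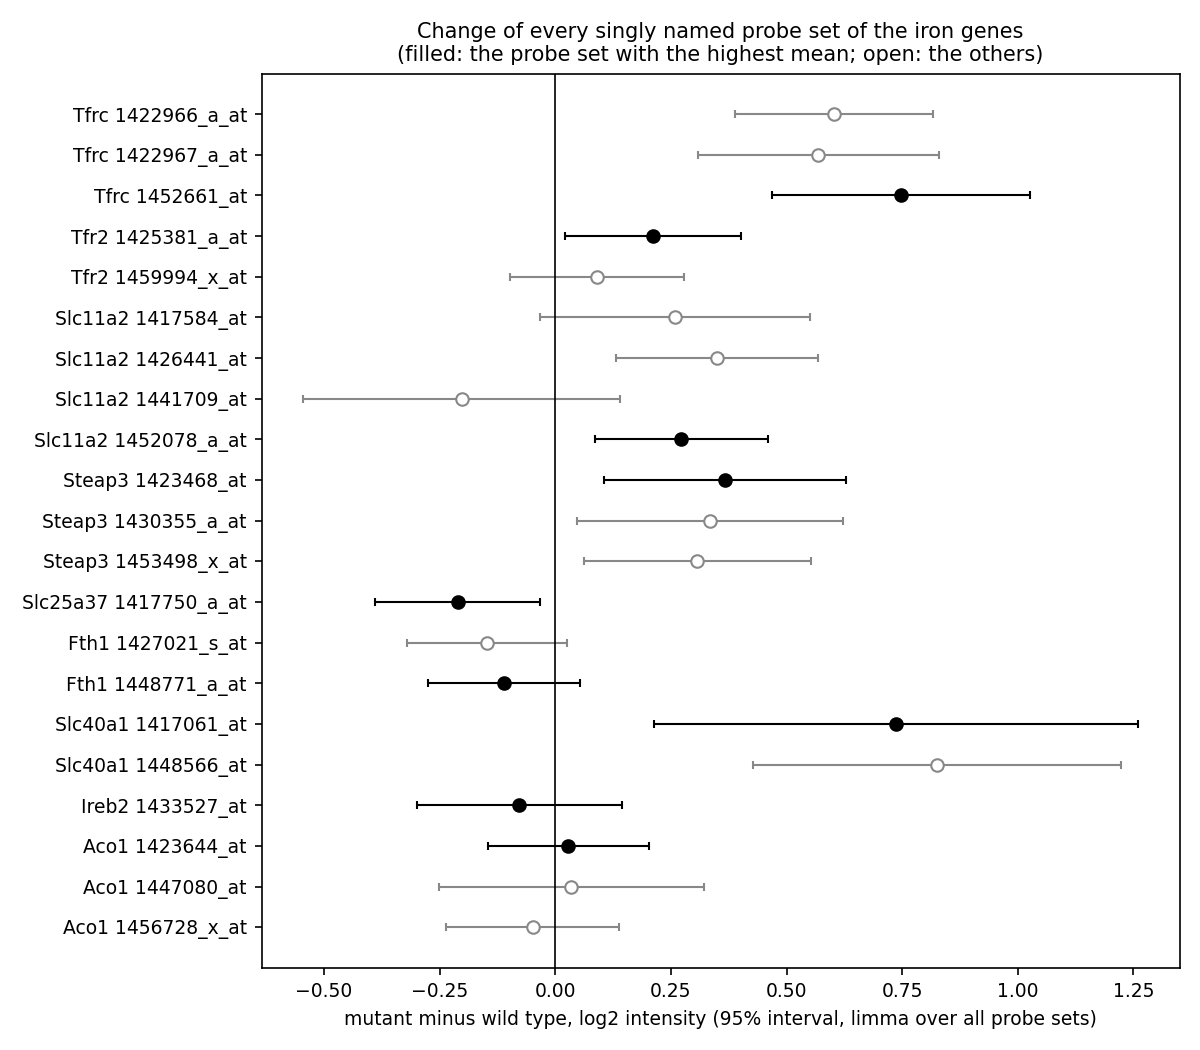
Mutant minus wild type difference in log2 intensity (horizontal axis) with its 95% interval from limma for the 21 singly named probe sets of the 9 iron genes, filled where the probe set represents the gene and open for the others. The 3 Tfrc and 2 Slc40a1 probe sets lie farthest to the right, from 0.57 to 0.83, and the single Slc25a37 probe set lies left of 0.

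Beyond the 10 genes, 61 of 69 further iron handling genes were measured. Of these, 42 lay above 0 and 19 below, with a median of 0.05, the same as over all genes, and 0 were called by limma over all genes. By limma without adjustment, 12 of the 61 lay higher and 1 lower at p under 0.05, against 11.9% and 5.23% of all genes. These counts include 15 genes within the range of absent transcript in both genotypes, with Steap2 and Hpx among the 12, and no direction is read from them. The median of the 9 genes of the main list was 0.21, with 6 above 0 and 3 below.

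Genes of mitochondrial iron and iron-sulphur clusters had 13 of 16 measured members above 0 and a median difference of 0.10, with 6 higher and 0 lower at an unadjusted limma p under 0.05, against 62.6% of all genes above 0 and 11.9% higher at that p. Nfs1, the cysteine desulphurase that supplies sulphur for the clusters, read 11.17, 11.11, 11.08 and 11.16 in wild type and 11.44, 11.53, 11.43 and 11.53 in mutant arrays. Its groups were tight and well apart, with a difference of 0.35 ± 0.063 (SE; limma adjusted p = 0.0714). The mitochondrial transporter gene Abcb8 differed by 0.28 ± 0.077 (SE; limma adjusted p = 0.162) and Bola3, a factor for cluster transfer, by 0.27 ± 0.092 (SE; limma adjusted p = 0.215), both without overlap. Fdx1, a ferredoxin, differed by 0.23 with overlapping groups (limma adjusted p = 0.248). Mitoferrin 2, Slc25a28, was at -0.01 (limma adjusted p = 0.952).

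Genes of haem turnover lay above 0 in 9 of 12 members, by a median of 0.14. Cd163, the macrophage receptor for haemoglobin bound to haptoglobin, read 8.69, 8.81, 8.94 and 9.09 in wild type and 9.32, 9.56, 9.67 and 9.58 in mutant arrays, without overlap. Its difference was 0.65 ± 0.11 (SE; limma adjusted p = 0.0652). Lrp1, which takes up haem bound to haemopexin, differed by 0.56 ± 0.18 (SE; limma adjusted p = 0.197) with overlapping groups. Hpx, haemopexin itself, was within the range of absent transcript in both genotypes (4.11 and 4.41). The haem exporter gene Flvcr1 differed by 0.09 and the haem oxygenase gene Hmox1, which frees iron from haem, by 0.02, neither with an unadjusted limma p under 0.05.

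In the wider uptake list 11 of 13 measured genes lay above 0, by a median of 0.115, and 5 of the 13 were within the range of absent transcript in both genotypes, among them the reductase Steap2 (4.35 and 4.70). Lcn2, a neutrophil protein that binds iron-loaded siderophores, differed by 1.09 ± 0.38 (SE; limma adjusted p = 0.222), from 10.05 to 11.57 in wild type and from 11.14 to 12.60 in mutant arrays. Mcoln1, a lysosomal channel that releases iron, differed by 0.32 ± 0.14 (SE; limma adjusted p = 0.281). Both overlapped between the groups.

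Among storage genes other than Fth1 and Ftl1, 4 of 6 lay below 0, Ftmt among them, with a median of -0.06 and none at an unadjusted limma p under 0.05. The ferritin receptor for autophagy, Ncoa4, was at -0.04 and the iron chaperones Pcbp1 and Pcbp2 at 0.04 each. Ftmt, mitochondrial ferritin, was within the range of absent transcript (3.97 and 3.89). So were all 7 measured genes of export and systemic control, among them the hepcidin genes Hamp and Hamp2, and no direction is read from them.

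In the sensing list 6 of 7 genes lay below 0, with a median of -0.14. Epas1, the hypoxia factor whose message carries an iron-responsive hairpin, was dim and differed by -0.39 ± 0.15 (SE; limma adjusted p = 0.256), with a mutant mean of 6.29 in the range of absent transcript. Fbxl5, which marks iron regulatory protein 2 for degradation, was at -0.14, and Rc3h1 and Zc3h12a were at -0.22 and -0.02. Zfp36, the only gene of the list above 0, had its largest difference in size, 0.57 (limma adjusted p = 0.459), with overlapping groups. Epas1 was the 1 gene of the list with an unadjusted limma p under 0.05, in the downward direction, against 5.23% of all genes. Haem synthesis genes lay above 0 in 6 of 8, by a median of 0.11. The erythroid enzyme gene Alas2 differed by 1.52 ± 0.46 (SE; limma adjusted p = 0.189), from 5.34 to 5.86 in wild type and from 5.56 to 8.02 in mutant arrays, and its wild type values were all within the range of absent transcript. Uros, an enzyme of the same pathway, differed by 0.23 ± 0.090 (SE; limma adjusted p = 0.25).

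**Figure D4:**
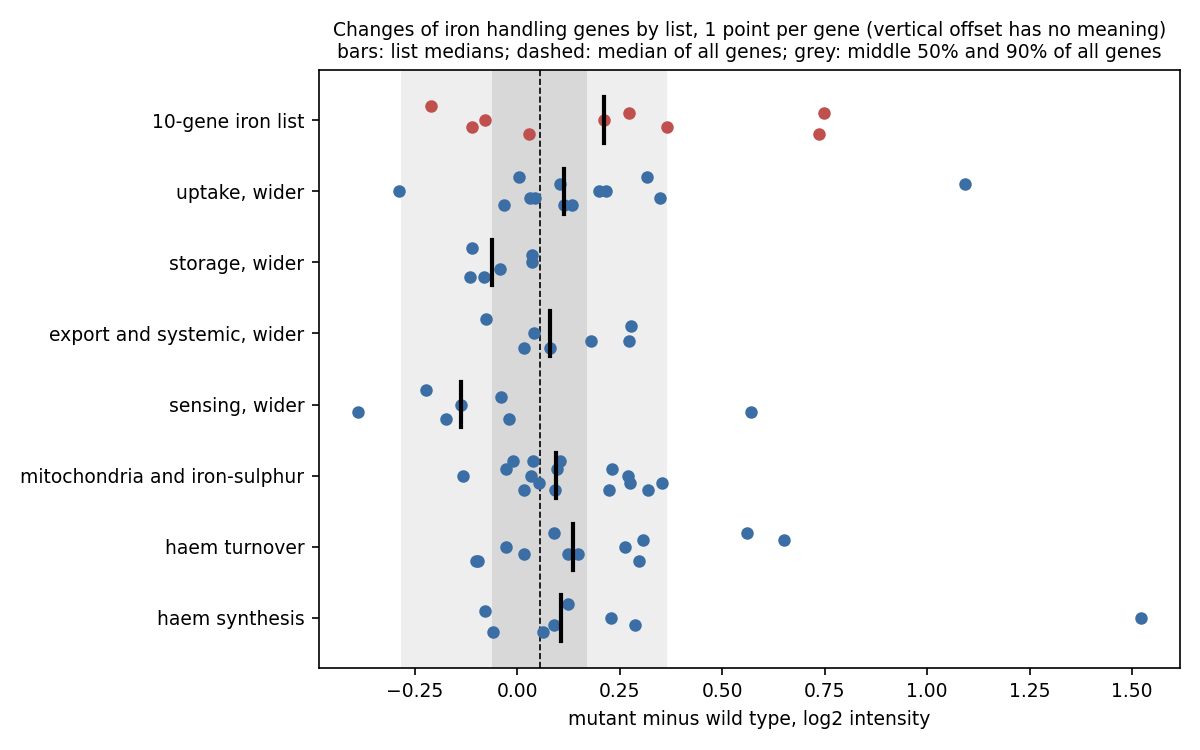
Mutant minus wild type difference in log2 intensity (horizontal axis), 1 point per gene, for the main iron list (red) and the wider lists (blue), with list medians as bars and the middle 50% and 90% of all genes in grey around their median of 0.05. Tfrc and Slc40a1, at 0.75 and 0.74, lie far to the right of the grey bands, and the sensing list has a median of -0.14.

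Most erythroid, macrophage, dendritic, megakaryocyte and granulocyte markers lay above 0, none called by limma, and their part in the results was not tested. Of 20 measured erythroid markers 18 lay above 0, by a median of 0.46, with 5 higher at an unadjusted limma p under 0.05, against 62.6% and 11.9% of all genes, and 4 of the 20 were within the range of absent transcript in both genotypes. The mean of the list was 9.19, 9.45, 9.68 and 8.98 in wild type and 9.31, 10.26, 10.05 and 9.83 in mutant arrays. Mutant array 1 lay within the wild type range of this mean. Its values for Slc4a1 (9.10), Hbb-b2 (11.12) and Zfpm1 (10.46), and for Alas2 (6.89) of haem synthesis, were above all wild type arrays. Its values for Ermap (8.97), Rhd (8.07), Car1 (11.69) and Ank1 (6.73) were below all wild type arrays. The red cell genes Slc4a1 and Hbb-b2 were the markers with the largest differences, 2.32 and 1.67, while the bright globin gene Hba-a2 differed by 0.01. The erythroid factor genes Klf1 and Gata1 differed by 0.64 and 0.50 (limma adjusted p = 0.337 and 0.271), both with overlapping groups. The factor genes Zfpm1 and Tal1 differed by only 0.12 and -0.01.

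Beside Slc40a1 and Cd163, 15 of 17 macrophage markers, Cd163 among them, lay above 0, by a median of 0.38, with 6 higher and 1 lower at an unadjusted limma p under 0.05, against 11.9% and 5.23% of all genes. Adgre1, C1qa, C1qc and Fcgr1 were within the range of absent transcript in 1 genotype and Marco, Mertk and Siglec1 in both. The list mean was 8.15, 8.08, 8.01 and 7.76 in wild type and 8.05, 8.28, 8.62 and 8.20 in mutant arrays. The list was highest in wild type array 1 and mutant array 3 and lowest in wild type array 4 and mutant array 1, whereas Slc40a1 was highest in wild type array 2 and mutant array 2 and lowest in the same arrays as the list. Single markers differed in this. Among wild type arrays, Vcam1, Mrc1, C1qa, C1qb and C1qc were highest in array 2 and lowest in array 4, as Slc40a1 was. Among mutant arrays these genes were highest in array 3. Csf1r and Cd68 were highest among wild type arrays in array 1, and Cd163 in array 4. Cd14 read 8.76 in wild type array 1 and 6.60 in wild type array 2, and it differed by -0.99 with overlapping groups. Dendritic cell markers had the largest median difference of the marker lists, 0.67, with 7 of 8 above 0 and 5 of 8 higher at an unadjusted limma p under 0.05. Their list means ran from 9.39 to 10.36 in wild type and from 10.39 to 10.86 in mutant arrays, without overlap. In this list the class II antigen presentation genes H2-Aa, H2-Ab1, H2-Eb1 and Cd74 differed by 0.96, 0.50, 1.12 and 1.18. Itgax differed by 0.84, Siglech by 0.15 and Flt3, also in the LSK list, by -0.05. Batf3 (0.48) was within the range of absent transcript in both genotypes. Megakaryocyte markers had list means from 8.36 to 8.77 and from 8.56 to 9.11. Beside Lcn2, granulocyte markers had list means from 12.54 to 13.24 and from 13.08 to 13.63. Proliferation genes, of interest because dividing cells carry more Tfrc, had list means from 12.67 to 12.90 in wild type and from 12.67 to 13.03 in mutant arrays. These means overlapped between the genotypes. Of the 10 measured proliferation genes 9 lay above 0, against 62.6% of all genes, by a median of 0.09. Plk1 (0.40) was the 1 that was higher at an unadjusted limma p under 0.05, against 11.9% of all genes. The part of these genes in the difference of Tfrc was not tested. Lymphoid markers lay above 0 in 6 of 10, by a median of 0.03, and mast cell markers had a median of 0.26, and the means of both lists overlapped between the genotypes.

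**Figure D5:**
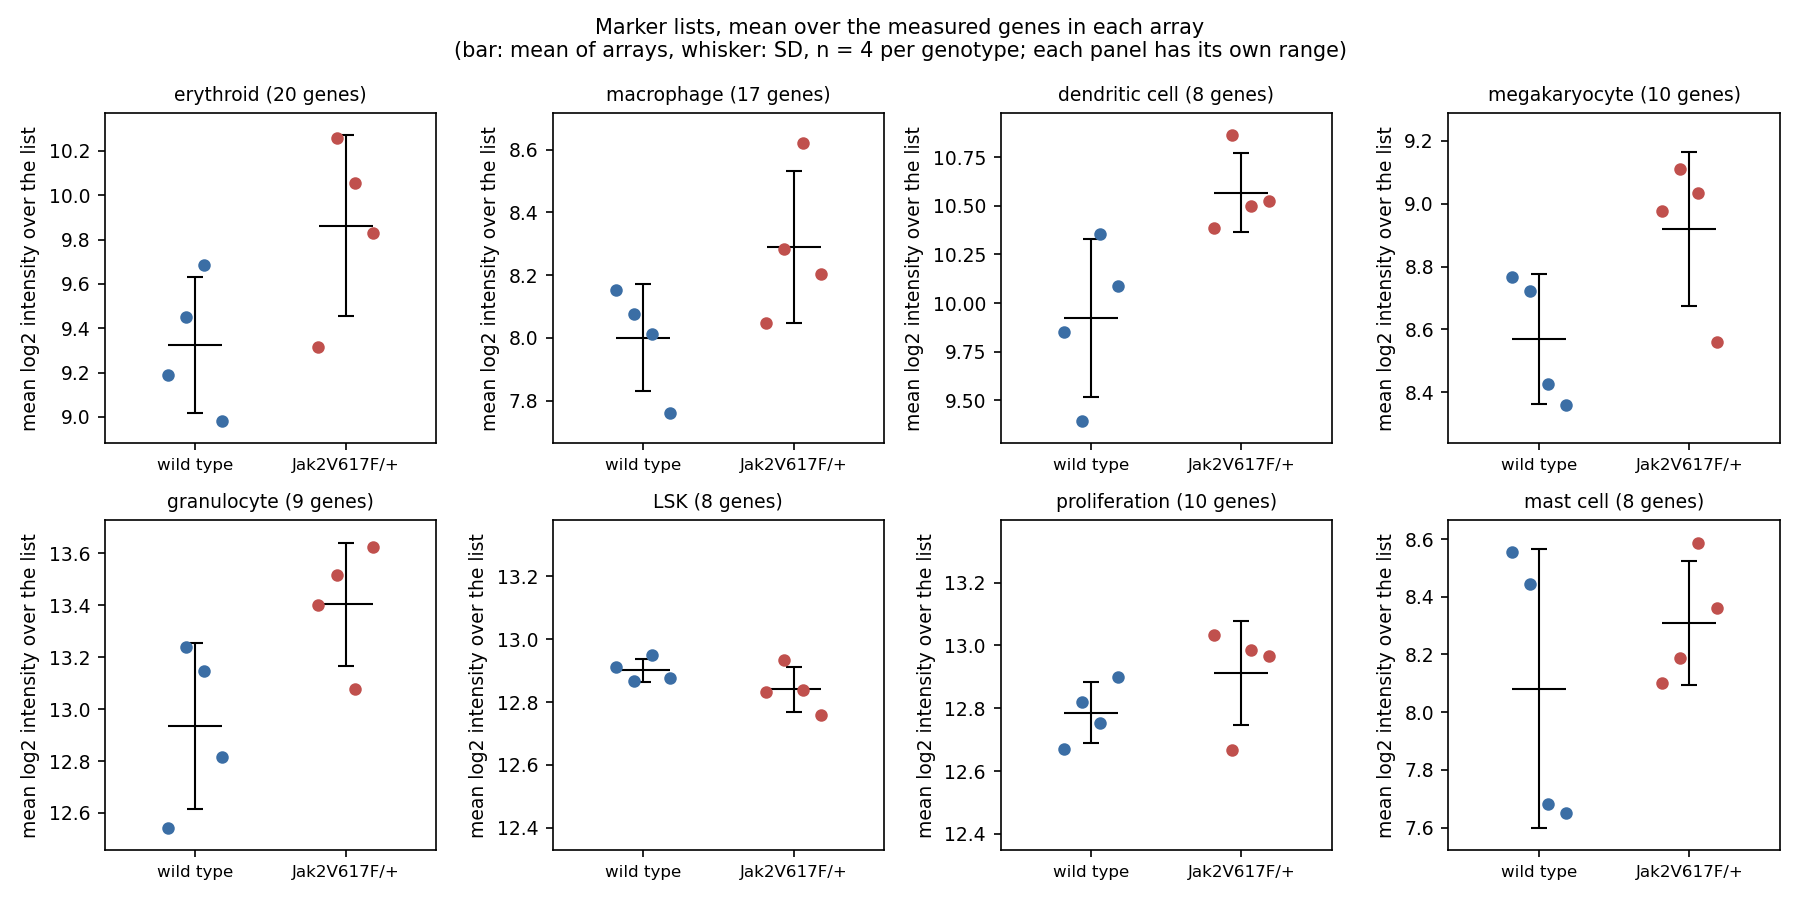
Mean log2 intensity over each marker list (vertical axes, each panel with its own range) in 4 wild type (blue) and 4 mutant arrays (red), with mean and SD of the arrays. The genotypes overlap in all panels except that of dendritic cell markers, where 10.36 is the highest wild type and 10.39 the lowest mutant mean.

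Within the genotypes, the genes most like Tfrc were sought by the Pearson correlation of deviations from the genotype means over the 8 arrays, among 9096 other genes at or above the median level. The closest were the splicing factor gene Smndc1 (0.97), the kinase gene Mapk9 (0.97), Rbpj, the transcription factor of Notch signalling (0.96), Cep57 (0.95), Gng10 (0.95) and Tmem65 (0.94). Each of these was lowest in wild type array 4 among the wild type arrays and highest in wild type array 2, or tied there to 2 decimals, and none lay higher in mutant cells, with differences from -0.24 to -0.01. Among the iron genes, Slc40a1 came closest (0.93, place 10), followed by Slc11a2 (0.81, place 159), Slc25a37 (0.70, place 405), Fth1 (0.69, place 459) and Ireb2 (0.65, place 598). Tfr2 and Aco1 were at -0.05 and -0.12. Steap3, which lay under the median level and so has no place, was at 0.31. These values rest on the probe set that represents Tfrc, since the other Tfrc probe sets correlated with it by only -0.04 to 0.57.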

How the data were processed

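Gene expression was measured on 8 arrays, 1 per mouse, 4 of each genotype as the labels give it. The deposited values were log2 intensities, made by the authors with RMA in R 2.11.0 (affy) according to the submitters' processing notes. RMA corrects background, equalises the distributions of the arrays, which hides a shift of most transcripts one way, and summarises probes. That the scale is log2 follows from the range of the values. Chip definition and filters are not given in the sources used here.

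Of 45101 probe sets, 64 controls stayed out of the fits. The platform annotation gave 34945 probe sets 1 symbol, and for each of 18193 genes the brightest on average was used. Limma 3.58.1 (R 4.3.3; lmFit, eBayes) compared mutant with wild type, two-sided and without covariates. P-values were adjusted by Benjamini-Hochberg across genes, with calls at 0.05. The mean of the Tfrc controls was tested by exact permutation. Lists are described by counts and medians. Named were the 10 iron genes, their other probe sets, up to 4 genes per wider list at an unadjusted p under 0.05 (else the smallest p), and the 6 genes most like Tfrc. Slc25a28, Flvcr1, Hmox1, Ncoa4, Pcbp1, Pcbp2, Hamp, Fbxl5, Rc3h1, Zc3h12a, Zfp36 and the single marker genes were named after their values were seen. The 10 genes and all lists were chosen with earlier results of these data known. Alternatives were the replicate block, median centring, a filter on dim genes, other uses of probe sets, another variance prior, array weights, sex as a covariate and each array left out. Scripts were tested on simulated data. Promoter windows came from RefSeq, GRCm38.p6.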

Additional observations from a re-analysis of the deposited data

Results flagged for a closer look

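In 3 of 92 groups of 4 arrays examined, 1 array stood apart from the other 3 by Dixon's rule, which flags about 5% of groups by chance. Tfr2 read 12.37 in mutant array 4, below 12.49 to 12.51 in the other mutant arrays. Slc11a2 probe set 1426441_at read 8.22 in wild type array 2, above 7.96 to 7.98 in the others. The 3′ control probe set for Tfrc read 10.62 in mutant array 4, above 10.22 to 10.26 in the others.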

How the results depend on the processing

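The difference of Tfrc lay above 0 in all 19 alternatives, from 0.64 to 0.84, with limma adjusted p from 0.0218 to 0.146. It was called with probe sets averaged (0.64), under a robust prior that follows intensity (0.75) and with arrays centred over all probe sets (0.79), and in these the count of iron genes called was 1, Tfrc, against 0 otherwise. Leaving out each array gave 0.64 to 0.83 and a count of 0. The mean of the Tfrc controls ranged from 0.52 to 0.62, and the single controls from 0.40 to 0.63. The exact p of the mean was above the threshold with the replicate block (0.55, exact p = 0.125) and among arrays with male expression (0.54, exact p = 0.1), where no smaller p is possible. Aco1 turned from 0.03 to -0.0013 with sex as a covariate, and the other 7 genes kept their direction in every alternative that gave a value. Without _s_at, _x_at and _a_at probe sets, Tfr2, Fth1 and Slc25a37 had none left, and Steap3 was too dim for the filter on dim genes. The wider iron genes had 0 calls throughout; in the main test 13 had an unadjusted limma p under 0.05. Same-numbered arrays did not deviate together (correlations from -0.22 to 0.10), so the numbers are not taken as pairs; with the replicate block Tfrc was 0.75 (limma adjusted p = 0.115) and 8 genes were called in all, against 30. That count ranged from 8 to 75 over the alternatives on genes and was 110 on probe sets. With 1 array fewer it was 13 and 16 (wild type arrays 2 and 3 left out), 19, 16 and 14 (mutant arrays 1, 2 and 4 left out) and at most 40.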
